A study of Mus musculus with 3 samples.

Results

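The 10 genes described here encode enzymes of glycolysis and the lactate dehydrogenases, and they were chosen by name: Hk1, Hk2, Aldoa, Aldoc, Gapdh, Pgk1, Eno1, Pkm, Ldha and Ldhb. They are 10 of the 31053 genes in the count tables, and each of them was present in the tables and passed the filter on low counts. The samples were hippocampal cells of 2-year-old wild-type C57BL/6 mice. There were 3 libraries of the 10x Chromium 3′ chemistry in 1 group, replicates 1, 2 and 3, and no young, mutant or treated group. Papain freed the cells and beads took myelin out of the suspension, and the title of replicate 3 gives 25 months where its age label gives 2 years. According to the series text 6 hippocampi were used; which animals went into which library is not stated, so p-values measure the spread between these libraries, which may be technical. Comparisons were made between 6 cell classes within the libraries, set by marker detection: astrocyte, endothelial, microglia, ependymal, oligodendrocyte precursor (OPC) and pericyte cells. The names stand for cells like these by their markers, since no annotation by the authors was used.

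Glycolysis splits glucose into pyruvate in the cytosol, and lactate dehydrogenase interconverts pyruvate and lactate. Several steps are run by isoenzymes from separate genes: hexokinases 1 and 2 trap glucose by phosphorylating it, aldolases A and C split fructose bisphosphate, and lactate dehydrogenase is a tetramer of A and B subunits. In brain, aldolase C is a marker of astrocytes and of bands of Purkinje cells. The A subunit of lactate dehydrogenase is known from tissues with much glycolysis, and the B subunit from tissues such as heart that oxidise lactate.

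Replicates 1, 2 and 3 held 45716237, 7185668 and 40377042 UMIs (unique molecular identifiers, each taken as 1 RNA molecule) in 7241, 1062 and 6456 barcodes, and pairs of libraries shared 2 to 12 barcodes. A class needed at least 3 of its 10 markers in a cell and at least 2 times as many as of any other class, and no glycolytic gene was among the markers. This gave 1463, 92 and 708 astrocytes in replicates 1, 2 and 3, against 2385, 396 and 1724 endothelial cells, 940, 101 and 826 microglia, 237, 18 and 350 ependymal cells, 182, 15 and 102 OPCs and 88, 17 and 82 pericytes. The leading genes of each class held 2 to 7 of its own markers among the top 10 and 0 of another class. Since the cells were chosen by these markers, this is no test of the class names. Ependymal cells had median UMI counts of 1172.5 to 2583 per library, beside 2098.5 to 8311 in the other classes, and their summed astrocyte markers took 0.159% ± 0.0139 of UMIs against 0.882% ± 0.105 in astrocytes (SD, n = 3). This depth belongs to the cells the marker rule kept. Leiden clusters named ependymal held 373, 49 and 649 cells in replicates 1, 2 and 3, with median UMIs of 3972, 2093 and 4810. Their median mitochondrial shares were 2.53%, 4.11% and 3.41%. Of the astrocytes called by markers 74.7% lay in Leiden clusters named astrocyte, against 91.7% to 100% for the other classes and their clusters. Of the 12100 cells kept, 16 were called neurons and 6 oligodendrocytes, so neither entered a comparison.

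Summed, the 10 genes took 1.05%, 1.19% and 1.25% of astrocyte UMIs in replicates 1, 2 and 3, against means of 0.460% ± 0.0450 in ependymal cells, 0.312% ± 0.0593 in microglia, 0.310% ± 0.0162 in pericytes, 0.275% ± 0.0408 in OPCs and 0.257% ± 0.0109 in endothelial cells (SD, n = 3). The 3 astrocyte values lay above those of the other 5 classes, and Aldoc alone gave most of them. Without Aldoc, a sum added after these values were seen, the genes took 0.455%, 0.516% and 0.565% of astrocyte UMIs, against 0.343%, 0.439% and 0.401% of ependymal UMIs and means of 0.237% to 0.303% in the other classes. The median mitochondrial share of a cell's UMIs was 10.1% to 11.7% per library in astrocytes, against 7.11% to 9.80% in OPCs, 3.31% to 7.33% in pericytes, 2.38% to 4.72% in endothelial cells, 1.41% to 3.74% in microglia and 1.38% to 2.38% in ependymal cells. The part of this RNA quality measure in the differences between classes was not tested.

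UMIs were summed per library and class, levels are given as CPM (UMIs per 1000000 UMIs of the class), and each class was set against the unweighted mean of the other 5 on the log2 scale, with edgeR's quasi-likelihood test over 12378 genes. A gene with an adjusted p under 0.05 is called higher or lower, and log2 changes are given ± standard error. This error is the absolute change over the square root of the test's F statistic, so it restates the p-value. In astrocytes 7 of the 10 genes were higher and 1 was lower, where 31.1% of all genes tested were higher and 23.0% lower. In endothelial cells 2 were higher and 6 lower (32.7% and 22.6% of all genes), and in microglia 3 were higher and 2 lower (30.6% and 29.1%). In ependymal cells 6 were higher and 1 lower (28.3% and 23.9%), in OPCs 0 were higher and 8 lower (24.4% and 21.7%), and in pericytes 1 was higher and 5 lower (12.2% and 8.04%). The median log2 change of the 10 genes was 0.97 in astrocytes, -0.61 in endothelial cells, 0.16 in microglia, 0.44 in ependymal cells, -0.73 in OPCs and -0.69 in pericytes, beside medians between -0.16 and 0.05 over all genes. The counts in endothelial cells, microglia, OPCs and pericytes depended on scaling. In endothelial cells 1 gene was higher with RLE scaling, total UMIs alone or DESeq2. With total UMIs alone in place of TMM factors, the median of all genes moved to -0.76 in microglia and 0.51 in OPCs, and 6 genes were lower in microglia, 3 lower in OPCs and 1 lower in pericytes. Without replicate 1 the ependymal count of higher genes was 3, the OPC count of lower genes 4 and the astrocyte count of lower genes 2. In pericytes no gene was higher without replicate 1 or replicate 3, and the count of lower genes was 3 without replicate 2 and 1 without replicate 3. Stricter markers (at least 5 of a class and at most 1 of another) left 1 higher and 0 lower in ependymal cells, 3 lower in endothelial cells and 0 lower in astrocytes, and too few pericytes for a value. With cells thinned to 1000 UMIs, 0 were higher and 3 lower in pericytes and 0 lower in astrocytes. Other settings named beside a lost call are classes taken from Leiden clusters, and a minimum of 20 cells for a class in a library.

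**Figure D1:**
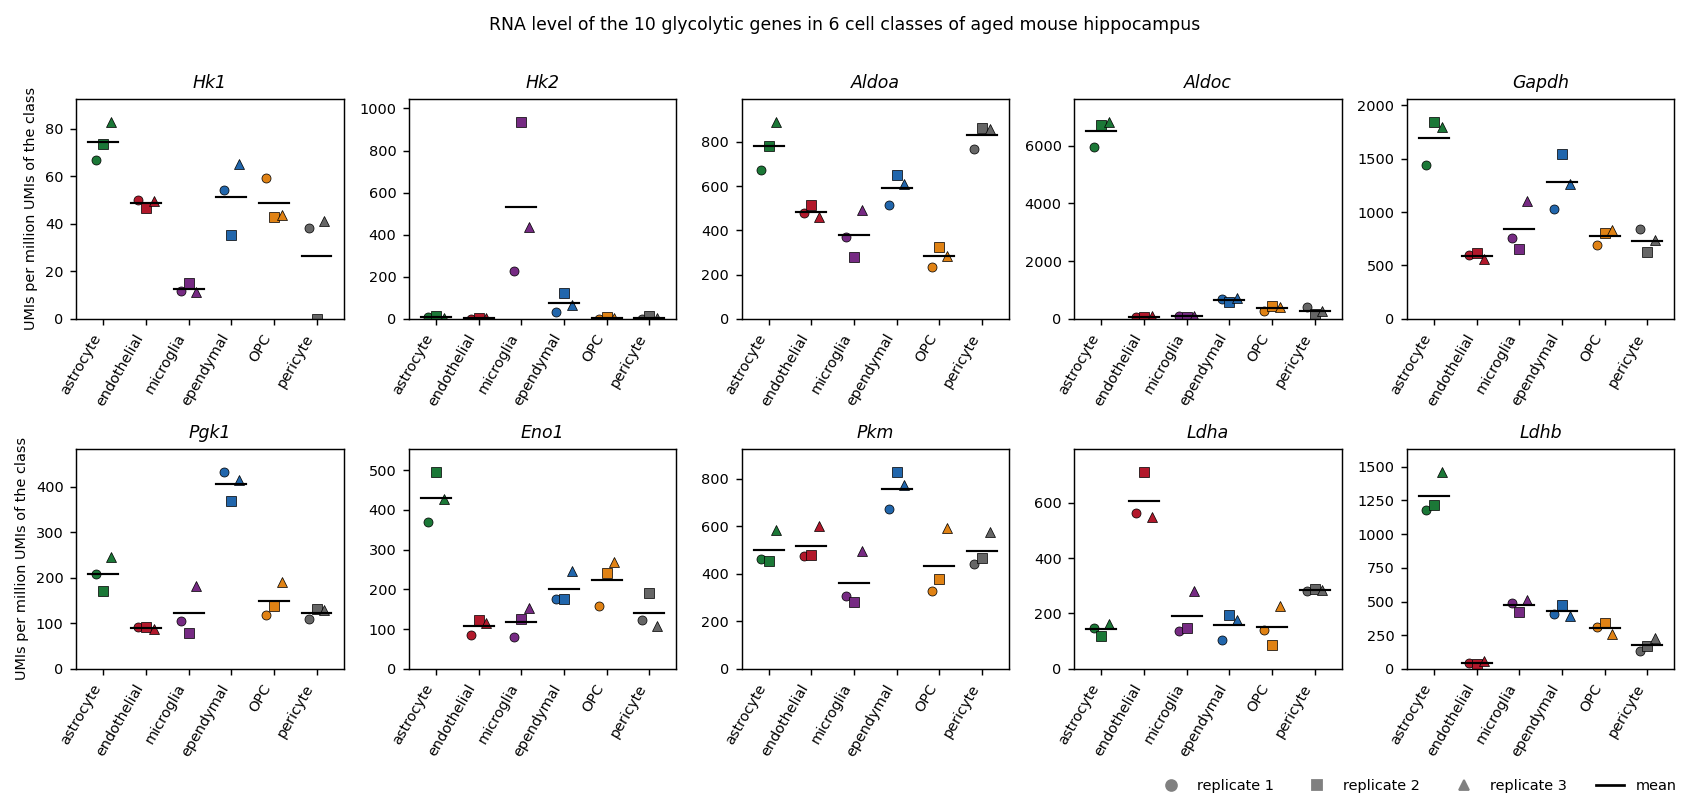
RNA level of each of the 10 genes, in CPM (y axes start at 0 and differ between panels), by cell class; symbols are the 3 libraries and bars their means. Aldoc, Eno1 and Ldhb stand apart in astrocytes, Ldha in endothelial cells, Hk2 in microglia, and Pgk1 and Pkm in ependymal cells.

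The hexokinases take the first step, and their isoenzymes set microglia apart. Hk2, whose enzyme is the hexokinase of insulin-sensitive and proliferating tissues, had 226, 934 and 437 CPM in microglia of replicates 1, 2 and 3. In ependymal cells it had 32.9, 123 and 67.9 CPM, and the means were 8.45 CPM in astrocytes, 5.71 in pericytes, 4.81 in OPCs and 2.43 in endothelial cells. The microglial values lay above those of the other 5 classes in each library, spread about a mean of 532 ± 364 CPM (SD, n = 3). The log2 change was 6.67 ± 0.19 in microglia (adjusted p = 2.38e-23), 2.49 ± 0.31 in ependymal cells (adjusted p = 4.95e-08) and -3.13 ± 0.60 in endothelial cells (adjusted p = 4.94e-05). OPCs were lower too, by -2.94 ± 0.71 (adjusted p = 0.00105), on 5 UMIs in all, with 0 UMIs in replicate 1, which allows up to 2.97 CPM (3 counts). The ependymal value was 74.6 CPM on average, against an arithmetic mean of 111 CPM over the other classes that includes microglia. The test uses a mean of logs, and on that scale the geometric means were 56.4 CPM in ependymal cells and 11.3 CPM in the others. With the stricter markers the calls were lost in endothelial cells (-2.48, adjusted p = 1), OPCs (-7.33, adjusted p = 0.211) and ependymal cells (1.01, adjusted p = 0.87), and with thinned cells in endothelial cells (-1.73, adjusted p = 1) and OPCs (-5.32, adjusted p = 1). After thinning cells to 1000 UMIs, 18.2%, 46.5% and 34.2% of microglia in replicates 1, 2 and 3 held an Hk2 UMI, against 1.05%, 0% and 0.754% of astrocytes.

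Hk1, the main hexokinase of brain, ran the other way. It had 11.7, 14.9 and 11.5 CPM in microglia, against 67.0, 73.6 and 82.7 CPM in astrocytes. Ependymal, endothelial and OPC cells averaged 51.5, 48.7 and 48.7 CPM with overlapping libraries, and pericytes 26.5 CPM. Replicate 2 held no Hk1 UMI in 17 pericytes, which allows up to 35.9 CPM. That 0 enters the mean of logs against which microglia of replicate 2 were set. Astrocytes, endothelial cells, ependymal cells and OPCs had 73.6, 46.6, 35.2 and 42.9 CPM there, each above the 14.9 CPM of microglia. The log2 change was -1.45 ± 0.21 in microglia (adjusted p = 5.38e-07, lower in 2 of 3 libraries) and 1.15 ± 0.16 in astrocytes (adjusted p = 6.79e-07). Smaller values were called in endothelial cells (0.54 ± 0.16, adjusted p = 0.00504) and in ependymal cells (0.51 ± 0.21, adjusted p = 0.0368). The endothelial call was lost with RLE scaling (adjusted p = 0.0598), total UMIs alone (0.0632), DESeq2 (0.0861), the stricter markers (0.355) or thinned cells (0.402). The ependymal call was lost without replicate 1 (adjusted p = 0.0661) or replicate 3 (0.31), without the library as a replicate block (0.0534) and with thinned cells (0.454), and its change was -1.33 with the stricter markers.

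Aldolase showed the largest difference of the astrocytes. Aldoc had 5966, 6707 and 6810 CPM in astrocytes of replicates 1, 2 and 3, against 675, 580 and 722 CPM in ependymal cells and means of 374 CPM in OPCs, 281 in pericytes, 91.8 in microglia and 77.5 in endothelial cells. No library of another class reached 1000 CPM. The log2 change was 5.0 ± 0.15 in astrocytes (adjusted p = 4.34e-22), and it stayed between 4.57 and 5.23 over the 15 alternative settings tried. Endothelial cells (-2.58 ± 0.22, adjusted p = 2.01e-11) and microglia (-1.79 ± 0.21, adjusted p = 1.86e-08) were lower. Ependymal cells were 0.73 ± 0.19 above the mean of logs of the other classes (adjusted p = 0.00154), with scaled geometric means of 569 CPM in ependymal cells and 351 CPM in the others. OPCs (-0.62 ± 0.21, adjusted p = 0.0156, lower in 2 of 3 libraries) and pericytes (-0.74 ± 0.23, adjusted p = 0.0178) were called lower, the OPCs not without replicate 1 (adjusted p = 0.471) and the pericytes not without replicate 2 (adjusted p = 0.137) or 3 (adjusted p = 0.102). The OPC call was also lost with total UMIs alone (adjusted p = 0.686), DESeq2 (0.0543) or no replicate block (0.0555), the pericyte call with total UMIs alone (0.109), no replicate block (0.0594) or at least 20 cells (0.086), and the ependymal call with the stricter markers (0.2).

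Aldoa, the form made in muscle and in most other tissues, varied less. Pericytes had 766, 862 and 858 CPM and astrocytes 673, 780 and 888 CPM, and these values overlapped. The other classes followed at means of 590 CPM in ependymal cells, 485 in endothelial cells, 380 in microglia and 283 in OPCs. Astrocytes were higher by 0.80 ± 0.14 (adjusted p = 2.41e-05) and OPCs lower by -1.61 ± 0.18 (adjusted p = 1.37e-08), both in each of 3 libraries. Pericytes were called higher (0.56 ± 0.16, adjusted p = 0.0115), but not without replicate 1 (adjusted p = 0.143) or replicate 3 (0.0648), nor with no filter on low counts (0.289), at most 10% mitochondrial UMIs (0.065), at least 20 cells (0.067) or thinned cells (0.211). Endothelial cells, microglia and ependymal cells were not past the threshold, and in each of these the sign of the change depended on the scaling.

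Of the enzymes in the payoff phase, Gapdh and Eno1 were highest in astrocytes and Pgk1 and Pkm in ependymal cells. Gapdh, which oxidises glyceraldehyde phosphate, had 1439, 1840 and 1799 CPM in astrocytes, with a mean of 1280 ± 258 CPM in ependymal cells that overlapped them and 590 ± 28.2 CPM in endothelial cells (SD, n = 3). It was higher in astrocytes by 1.15 ± 0.15 (adjusted p = 8.09e-08) and lower in endothelial cells by -0.53 ± 0.16 (adjusted p = 0.00717; 0.057 without replicate 3), in OPCs by -0.81 ± 0.17 (adjusted p = 0.000285) and in pericytes by -0.61 ± 0.18 (adjusted p = 0.0119). The pericyte call was lost without replicate 2 (adjusted p = 0.124) or 3 (0.072), with total UMIs alone (0.141), Leiden clusters (0.404) or at least 20 cells (0.0793). The endothelial call was lost with the stricter markers (adjusted p = 0.172) or thinned cells (0.107), and the OPC call with total UMIs alone (0.139). In microglia Gapdh was called higher by 0.51 ± 0.15 (adjusted p = 0.00473), but its change was -0.17 with total UMIs alone, so this direction rests on the scaling, and the call was lost without replicate 3 (adjusted p = 0.129) and with thinned cells (0.238). Gapdh in ependymal cells missed the threshold (adjusted p = 0.135) but passed it with RLE scaling (0.0293), total UMIs alone (0.00478) or DESeq2 (0.0152).

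Eno1, the widely expressed enolase, had 369, 494 and 428 CPM in astrocytes, above the libraries of every other class. The next mean was 223 CPM in OPCs, and endothelial cells were lowest at 108 CPM. Microglia had 80.0, 125 and 153 CPM, which overlapped the endothelial values. Eno1 was not called in microglia (log2 change -0.08 ± 0.16, adjusted p = 0.71), but was called lower there with total UMIs alone (-0.75, adjusted p = 4.41e-05). The log2 change was 1.59 ± 0.14 in astrocytes (adjusted p = 3.75e-11) and -0.69 ± 0.16 in endothelial cells (adjusted p = 0.000405; 0.589 with the stricter markers). In pericytes it was -0.75 ± 0.22 (adjusted p = 0.0139; 0.244 without replicate 3, 0.098 with total UMIs alone and 0.29 with thinned cells).

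Pgk1, which makes ATP from bisphosphoglycerate, had 432, 369 and 416 CPM in ependymal cells, against 208, 170 and 246 CPM in astrocytes and means of 149, 123, 122 and 90.0 CPM in OPCs, pericytes, microglia and endothelial cells. The ependymal libraries lay above those of the other classes, with a log2 change of 1.43 ± 0.16 (adjusted p = 6.14e-09) that stayed between 1.23 and 1.67 over 15 alternatives. Astrocytes were higher by 0.56 ± 0.15 (adjusted p = 0.00283; 0.0506 without replicate 1 and 0.0786 with Leiden clusters). Endothelial cells were lower (-0.74 ± 0.17, adjusted p = 0.000323), as were OPCs (-0.69 ± 0.19, adjusted p = 0.00361; 0.182 without replicate 1) and pericytes (-0.75 ± 0.24, adjusted p = 0.022; 0.144 without replicate 1 and 0.106 without replicate 3). The OPC and pericyte calls were lost with total UMIs alone (adjusted p = 0.5 in OPCs and 0.136 in pericytes), and the pericyte call with no replicate block (0.0611), Leiden clusters (0.337) or thinned cells (0.0964). Pkm, the pyruvate kinase of brain and most other tissues, had 673, 826 and 773 CPM in ependymal cells and means of 518 CPM in endothelial cells, 500 in astrocytes, 494 in pericytes, 433 in OPCs and 361 in microglia. Below the ependymal cells, neighbours in this order overlapped. Ependymal cells were higher by 0.49 ± 0.15 (adjusted p = 0.0063; 0.185 without replicate 1, 0.0504 with no replicate block and 0.901 with the stricter markers) and OPCs lower by -0.77 ± 0.16 (adjusted p = 0.000187; 0.0538 without replicate 1 and 0.178 with total UMIs alone). The counts do not separate the splice forms of Pkm.

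The lactate dehydrogenase subunits parted astrocytes from endothelial cells. Ldhb had 1182, 1218 and 1458 CPM in astrocytes, against 42.7, 34.1 and 61.3 CPM in endothelial cells. Microglia averaged 477 ± 45.8 CPM, ependymal cells 426 ± 42.3, OPCs 304 ± 42.8 and pericytes 178 ± 50.4 (SD, n = 3), and in this order microglia and ependymal cells overlapped while the other neighbours did not. The log2 change was 2.66 ± 0.13 in astrocytes (adjusted p = 6.72e-17), 1.54 ± 0.14 in microglia (adjusted p = 6.57e-11), -3.00 ± 0.19 in endothelial cells (adjusted p = 1.93e-14) and -1.12 ± 0.21 in pericytes (adjusted p = 0.00012). The microglial value refers to scaled geometric means of 716 CPM in microglia and 246 CPM in the other classes, and with total UMIs alone it was 0.86. Ependymal cells (0.40 ± 0.16, adjusted p = 0.0428) and OPCs (-0.48 ± 0.17, adjusted p = 0.0245) were near the threshold. Without replicate 1 their adjusted p was 0.38 and 0.135, the ependymal one was 0.0928 without replicate 2, and the OPC one was 0.542 without replicate 3. With total UMIs alone the OPC change was 0.05, the opposite direction, and with RLE scaling, DESeq2, no replicate block, the stricter markers or thinned cells its adjusted p lay between 0.0598 and 0.218. The ependymal change was -0.01 with the stricter markers, and its adjusted p lay between 0.0798 and 0.105 with no replicate block, Leiden clusters or at least 1500 UMIs.

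Ldha had 562, 709 and 547 CPM in endothelial cells, against 146, 120 and 160 CPM in astrocytes. Pericytes had 281, 287 and 284 CPM, and microglia, ependymal cells and OPCs averaged 189, 158 and 151 CPM with overlapping libraries. Endothelial libraries lay above those of the other classes. The log2 change was 2.03 ± 0.16 in endothelial cells (adjusted p = 1.86e-12), -0.63 ± 0.19 in astrocytes (adjusted p = 0.0056), -0.91 ± 0.22 in ependymal cells (adjusted p = 0.000702) and -1.06 ± 0.21 in OPCs (adjusted p = 0.000111). Ldha did not pass the threshold in microglia (0.38 ± 0.17, adjusted p = 0.0619) or pericytes (0.20 ± 0.22, adjusted p = 0.595). It was called higher in pericytes with Leiden clusters (1.13, adjusted p = 0.000169), but its change was below 0 there in 2 of 14 alternatives. In microglia it was called higher with no filter on low counts (adjusted p = 0.00522) and without replicate 2 (0.0493), but its change was -0.28 with total UMIs alone. The astrocyte call was lost when cells were thinned to 1000 UMIs (adjusted p = 0.0808) and with the stricter markers (adjusted p = 0.579), which also ended the ependymal call (adjusted p = 0.427). Immediate early genes, which tissue dissociation can raise, took 3.95% ± 0.370 of endothelial UMIs, against 0.192% ± 0.0804 of astrocyte UMIs and 0.722% to 2.20% on average in the other classes, and their part in the difference of Ldha was not tested.

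**Figure D2:**
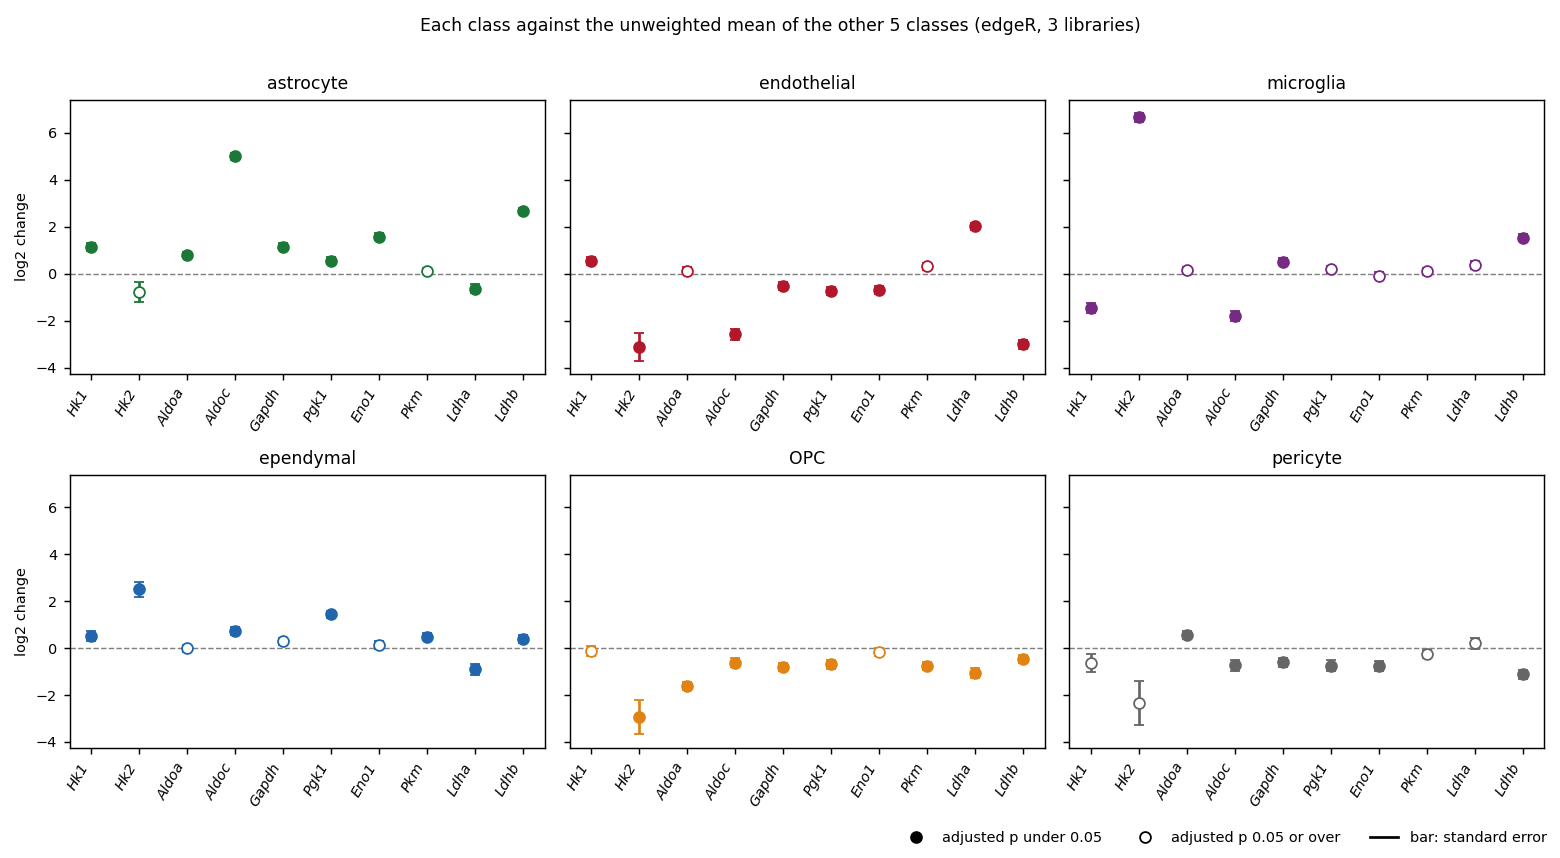
Log2 change of each gene in 1 class against the unweighted mean of the other 5 classes (y axis, with standard error bars), 1 panel per class; filled points have an adjusted p under 0.05 in edgeR's quasi-likelihood test. Astrocytes reach 5.0 for Aldoc and 2.66 for Ldhb, endothelial cells 2.03 for Ldha and -3.00 for Ldhb, and microglia 6.67 for Hk2.

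The ratio of paired isoenzymes within a library needs no scaling between classes. Each UMI marks the 3′ end of 1 molecule, so no correction for gene length was made, and since capture can differ between genes the ratios are compared between classes only. Aldoa made up 10.1%, 10.4% and 11.5% of the aldolase UMIs (Aldoa plus Aldoc) in astrocytes of replicates 1, 2 and 3, with exact 95% binomial intervals of 9.86% to 10.4%, 9.44% to 11.5% and 11.2% to 11.8%, which cover counting error only. In the other classes its mean share was 86.2% ± 4.26 in endothelial cells, 80.0% ± 3.42 in microglia, 75.0% ± 8.45 in pericytes, 47.2% ± 5.03 in ependymal cells and 43.4% ± 2.81 in OPCs (SD, n = 3). On the log2 scale the Aldoa to Aldoc ratio was -3.06 ± 0.11 in astrocytes, and its difference from the mean of the other 5 classes of the same library was -4.22 ± 0.25 (lower in 3 of 3 libraries).

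Ldha made up 11.02%, 8.96% and 9.92% of the lactate dehydrogenase UMIs (Ldha plus Ldhb) in astrocytes of replicates 1, 2 and 3, and 92.8% ± 2.74 on average in endothelial cells. Pericytes were between them at 62.0% ± 6.49, and OPCs, microglia and ependymal cells had 32.7% ± 13.4, 27.7% ± 6.97 and 26.7% ± 5.45 (SD, n = 3). Astrocytes, microglia, ependymal cells and OPCs held more Ldhb than Ldha UMIs, and endothelial cells and pericytes more Ldha. The log2 ratio was -3.18 ± 0.17 in astrocytes, with a difference from the mean of the other classes of -3.28 ± 0.25 (lower in 3 of 3 libraries). Microglia and ependymal cells differed by less than their spread, at -1.41 ± 0.50 and -1.48 ± 0.42.

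Hk1 made up 4.91%, 1.57% and 2.56% of the hexokinase UMIs (Hk1 plus Hk2) in microglia of replicates 1, 2 and 3, with intervals of 3.93% to 6.04%, 0.861% to 2.62% and 2.03% to 3.19%. Its mean share was 95.3% ± 3.31 in endothelial cells and 89.8% ± 3.99 in astrocytes, and ependymal cells held both at 44.5% ± 20.4 (SD, n = 3). OPCs and pericytes had only 5 and 2 Hk2 UMIs, with no ratio in the libraries at 0. The astrocyte log2 ratio of 3.21 ± 0.61 differed from the mean of the endothelial, microglial and ependymal ratios by 3.47 ± 1.01 (higher in 3 of 3 libraries). Astrocytes were compared with each other class by exact two-sided permutation tests over libraries, 13 in all. These tests took the values of the classes as independent groups and did not use their pairing by library. With 3 against 3 the smallest p is 0.1, so no comparison could pass 0.05. That value was reached, with no overlap of libraries, in each of the 13 but the Hk1 to Hk2 ratio of astrocytes and endothelial cells, where p was 0.2, and the adjusted values were 0.108 and 0.2.

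**Figure D3:**
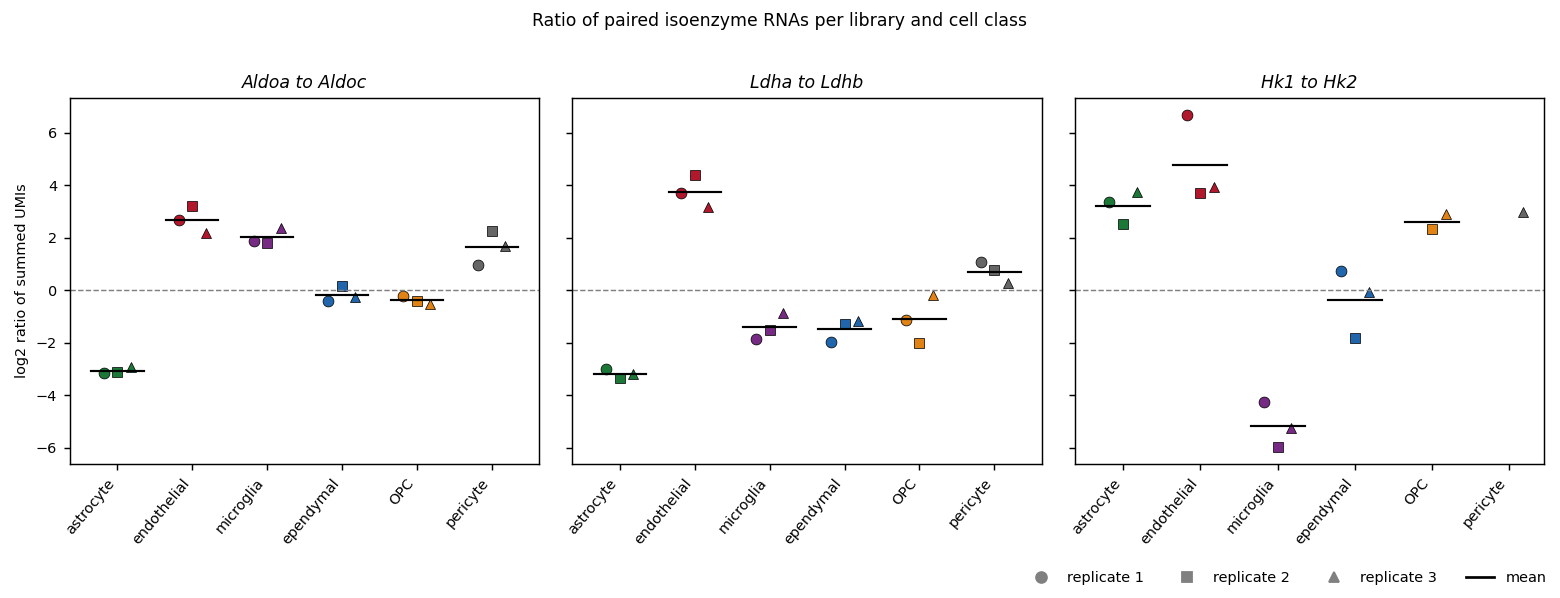
Log2 ratio of summed UMIs (y axis) of Aldoa to Aldoc, Ldha to Ldhb and Hk1 to Hk2 by class; symbols are libraries, bars their means (over 2 libraries for Hk1 to Hk2 in OPCs), and points are missing where a count was 0. Astrocytes lie near -3 for the first pair and for the second, endothelial cells at the top of both, and microglia lowest for Hk1 to Hk2.

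Free RNA from lysed cells can put UMIs of abundant genes into other cells' droplets, so low levels were read beside 6 tracer genes per source class that are no markers. Relative to astrocytes, Aldoc stood at 1.19% in endothelial cells and 1.42% in microglia, while the astrocyte tracers Slc1a2, Mlc1, Gjb6, Ntsr2, Slc7a10 and Cldn10 stood at 0.742% to 1.07% and 0.665% to 1.19%. Aldoc in pericytes, at 4.42% of the astrocyte level, was within the tracers' range of 2.55% to 4.65%, and in OPCs, at 5.71%, within their 0.775% to 6.92%. Ldhb was above the tracers, at 3.54% of the astrocyte level in endothelial cells, 37.3% in microglia and 13.7% in pericytes. Relative to microglia, Hk2 stood at 1.88% in astrocytes, where microglial tracers such as C1qa and Csf1r stood at 0.554% to 1.36%, and at 0.447% in endothelial cells, below their 0.496% to 1.18%. In ependymal cells Hk2 was at 14.4% of the microglial level and the tracers at 0.842% to 2.26%. In ependymal cells Aldoc was at 10.2% of the astrocyte level, with 5 astrocyte tracers at 0.863% to 3.52% and Mlc1 at 93.3%. Aldoc in pericytes and OPCs and Hk2 in endothelial cells, OPCs (0.752%) and pericytes (0.821%) thus lay within or below the tracers' ranges, while Aldoc in endothelial cells and microglia and Hk2 in astrocytes lay above the highest tracer by less than 1.5 times. The aldolase and hexokinase ratios of these classes rest on such levels, and the part of free RNA in them was not tested.

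Cells of each class were ranked by UMIs within a library and split into a shallow, a middle and a deep group of equal size. In endothelial cells Aldoc had 173, 89.9 and 47.4 CPM in the shallow, middle and deep group of replicate 1, 190, 66.8 and 34.1 CPM in replicate 2, and 200, 123 and 71.3 CPM in replicate 3. Each library had its lowest Aldoc level in the deep group. Endothelial Ldhb was likewise lowest there, with 78.6, 44.7 and 34.0 CPM in replicate 1. In microglia Ldhb was close to level, at 410, 525 and 491 CPM in replicate 1, while Hk2 was lower in deeper cells in replicates 1 (390, 274 and 152 CPM) and 3 (780, 507 and 340 CPM) and had 812, 1184 and 830 CPM in replicate 2. Gapdh was highest in the deepest microglia of each library. Aldoc in astrocytes had no single direction, with 5747, 4590 and 6502 CPM in replicate 1. Gapdh in OPCs was highest in the deep group of each library, at 258, 386 and 911 CPM in replicate 1. In pericytes Aldoc was lower in deeper cells in replicates 1 (1052, 381 and 251 CPM) and 3 (580, 291 and 163 CPM). Replicate 2 had 128, 133 and 237 CPM. In ependymal cells the 10 genes took 0.535%, 0.430% and 0.396% of UMIs in replicate 1 and 0.633%, 0.565% and 0.435% in replicate 3. Replicate 2 had 0.422%, 0.546% and 0.498%. The part of depth in the class levels was not tested.

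**Figure D4:**
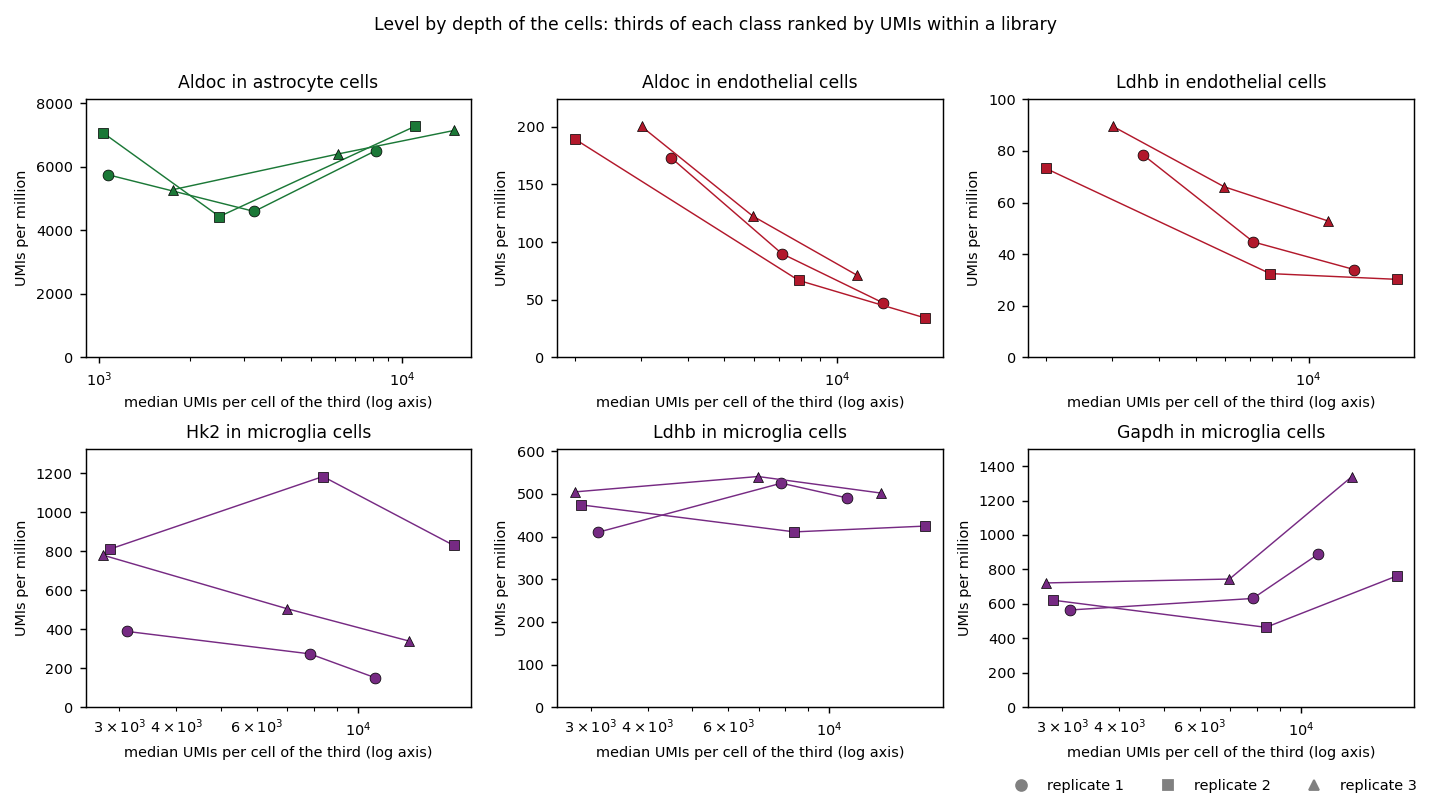
Level in CPM (y axes from 0) against the median UMIs per cell (log axis) of the shallow, middle and deep cells of a class, 1 line per library. In endothelial cells Aldoc and Ldhb are lowest in the deep group, with 173, 89.9 and 47.4 CPM of Aldoc in replicate 1, and in microglia Ldhb lies between 410 and 541 CPM.

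The promoters of Hk2, Aldoc, Ldha and Ldhb, the isoenzymes that set the classes apart, are shown as the 250 bases before the first start listed in RefSeq (GRCm38.p6), 5′ to 3′ on the gene's strand. Capitals mark ACGTG or GCGTG on either strand, the core of the element bound by hypoxia-inducible factors, which are known to drive several glycolytic genes. The letters CACGTG of the E-box hold ACGTG on both strands and are marked once. Hk2 lies on the minus strand at chr6:82774455-82774704, Aldoc on the plus strand at chr11:78322823-78323072, Ldha on the plus strand at chr7:46845554-46845803 and Ldhb on the minus strand at chr6:142507958-142508207.
Hk2: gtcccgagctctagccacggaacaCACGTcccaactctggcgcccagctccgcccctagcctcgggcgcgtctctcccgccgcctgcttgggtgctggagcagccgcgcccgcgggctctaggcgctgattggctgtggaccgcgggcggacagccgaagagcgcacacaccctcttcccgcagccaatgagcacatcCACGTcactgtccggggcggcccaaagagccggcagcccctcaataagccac
Aldoc: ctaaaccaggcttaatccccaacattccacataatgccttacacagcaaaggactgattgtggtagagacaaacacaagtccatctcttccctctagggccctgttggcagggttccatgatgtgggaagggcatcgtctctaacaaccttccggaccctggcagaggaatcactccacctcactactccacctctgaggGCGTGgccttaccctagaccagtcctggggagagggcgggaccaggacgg
Ldha: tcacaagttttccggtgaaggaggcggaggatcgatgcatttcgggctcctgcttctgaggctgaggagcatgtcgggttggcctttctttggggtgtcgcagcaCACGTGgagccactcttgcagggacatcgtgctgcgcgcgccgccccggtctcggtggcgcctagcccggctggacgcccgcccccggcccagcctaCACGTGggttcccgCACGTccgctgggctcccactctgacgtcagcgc
Ldhb: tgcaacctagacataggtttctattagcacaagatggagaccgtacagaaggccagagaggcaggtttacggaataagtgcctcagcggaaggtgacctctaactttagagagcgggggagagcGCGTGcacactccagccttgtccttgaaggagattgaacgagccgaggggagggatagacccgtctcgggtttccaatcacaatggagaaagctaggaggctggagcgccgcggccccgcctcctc
All 10 genes matched an entry, and the core was found at the first listed start of 7 of them and in 38.6% of the first-listed promoters of 27025 genes. Hk1, Aldoa and Pkm held none there but held it at another listed start, so that 10 of 10 held it at some listed start. The share of all genes that held it at any listed start was not computed, so this count has no background. Counted by single promoters over all listed starts, the core was in 38.6% of 32851, a measure unlike a count of genes. Ldha held 5 matches, some of them on both strands of 1 site, and Hk2 held 2, Aldoc 1 and Ldhb 1. Matches are a description of the letters in these windows and not sites shown to be bound.

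The remaining genes of the pathway were grouped in lists. Of 15 other glycolytic enzymes tested of 23 listed, 11 were higher and 0 lower in astrocytes, where 31.1% of all genes were higher and 23.0% lower, with a median log2 change of 1.28 beside 0.05 over all genes. In ependymal cells 7 were higher and 1 lower (28.3% and 23.9% of all genes). In the other classes 0 to 5 were higher and 3 to 5 lower, beside 12.2% to 32.7% and 8.04% to 29.1% of all genes, and nothing is read from these counts. The genes named are those with the highest or lowest changes of a class, so their calls in other classes are not all given. The largest log2 change of the list in astrocytes was that of Pfkm, a phosphofructokinase subunit, at 207 ± 9.41 CPM in astrocytes against 29.2 CPM on average in the other classes (log2 change 3.53 ± 0.15, adjusted p = 2.28e-18). Microglia were set apart by another hexokinase, Hk3, with 38.1, 33.0 and 40.3 CPM against a mean of 0.286 CPM in the other classes (8.06 ± 0.40, adjusted p = 1.66e-16). Ependymal cells had Hkdc1, a further hexokinase-like gene, at 22.3, 17.6 and 26.6 CPM against 0.231 CPM (7.34 ± 0.58, adjusted p = 3.29e-11). Where a class held 1 to 3 UMIs of a gene, the ratio of its summed level to the other classes' mean is given with its exact 95% Poisson interval for counting error. Eno2, the neuronal enolase, was lower in endothelial cells (-6.11 ± 0.73, adjusted p = 2.17e-08), which held 2 UMIs of it (ratio 0.00675, interval 0.000817 to 0.0244).

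Of 9 glucose and lactate transporters tested, 1 to 5 were higher and 1 to 5 lower in a class, beside 12.2% to 32.7% and 8.04% to 29.1% of all genes, and nothing is read from these counts for the list. Slc16a1, which carries lactate and other monocarboxylates, had 575, 600 and 510 CPM in endothelial cells against 40.3 CPM in the other classes (log2 change 5.05 ± 0.16, adjusted p = 8.77e-22). In pericytes it was lower, with 1 UMI (-5.11 ± 0.70, adjusted p = 1.05e-06; ratio 0.0135, interval 0.000341 to 0.0751), against a mean of 152 CPM that includes the endothelial cells, with 16.6 to 126 CPM in the other 4 classes. Slc2a5, a fructose carrier, had 169, 186 and 157 CPM in microglia against 0.752 CPM (8.36 ± 0.21, adjusted p = 1.12e-24), and was called lower in ependymal cells, with 1 UMI (-2.90 ± 1.15, adjusted p = 0.0349). The ependymal ratio of 0.0101 (interval 0.000254 to 0.056) is against a mean of 34.8 CPM that is nearly all microglial, since the other 4 classes had 0.487 to 1.72 CPM. Slc2a3, the neuronal glucose carrier, was lower in endothelial cells (-3.97 ± 0.42, adjusted p = 1.57e-09), and Slc16a3, known for lactate export, in astrocytes, with 9 UMIs (-3.28 ± 1.21, adjusted p = 0.0224). The glucose carrier Slc2a1 was higher in endothelial cells, at 2776 against 195 CPM (4.91 ± 0.14, adjusted p = 3.00e-23). Bsg was higher there too, at 15337 against 567 CPM (5.01 ± 0.13, adjusted p = 1.11e-23). Both values were added after they were seen. OPCs were higher for the monocarboxylate carrier Slc16a7 (5.29 ± 0.58, adjusted p = 1.99e-08) and for Emb, an ancillary protein of such carriers (4.89 ± 0.51, adjusted p = 3.55e-09), which was called higher in ependymal cells as well (4.98 ± 0.48, adjusted p = 6.86e-10). Ependymal Emb had 48.4, 0 and 21.5 CPM in replicates 1, 2 and 3, higher in 2 of 3 libraries. Microglia were also higher for Slc16a7, at 11.6 CPM beside 17.99 CPM in OPCs (5.73 ± 0.43, adjusted p = 6.02e-12), a value added after it was seen. The insulin-responsive Slc2a4 was higher in pericytes on 6 UMIs (4.21 ± 0.91, adjusted p = 0.000885), and with 0 UMIs in OPCs it was at least 2.79-fold lower there than the other classes' mean (3 counts over the class).

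Of 14 genes for the entry of pyruvate into mitochondria, 10 were higher and 0 lower in astrocytes (31.1% and 23.0% of all genes), with a median log2 change of 0.95, and 6 and 0 in ependymal cells (28.3% and 23.9% of all genes). In the other classes 0 to 4 were higher and 3 to 6 lower, beside 12.2% to 32.7% and 8.04% to 29.1% of all genes. Pdk4, a kinase that shuts off pyruvate dehydrogenase, was lower in microglia (-3.74 ± 0.90, adjusted p = 0.000642) and in OPCs, on 1 UMI (-4.68 ± 0.88, adjusted p = 5.14e-05; ratio 0.0279, interval 0.000706 to 0.155). It was higher in astrocytes (3.003 ± 0.28, adjusted p = 1.38e-10), ependymal cells (2.76 ± 0.35, adjusted p = 7.27e-08) and endothelial cells (1.31 ± 0.32, adjusted p = 0.000793), values added after they were seen. The related Pdk3 had 0 UMIs in pericytes and was at least 1.32-fold lower there. Of 6 gluconeogenesis genes listed 2 were tested, too few for a count to be set beside the share of all genes. Of 9 hypoxia factors and targets, 7 were higher and 2 lower in endothelial cells (32.7% and 22.6% of all genes), 3 and 5 in astrocytes (31.1% and 23.0%), and 0 to 2 higher and 0 to 4 lower in the other classes (12.2% to 30.6% and 8.04% to 29.1%). Among them, Vegfa was higher in astrocytes (3.55 ± 0.22, adjusted p = 1.63e-14) and Adm lower (-2.90 ± 0.28, adjusted p = 2.89e-10), and Ankrd37 was higher in endothelial cells (5.08 ± 0.19, adjusted p = 5.76e-20). Epas1, a hypoxia-inducible factor of vessels, had 1269 CPM on average in endothelial cells against 191 CPM in the other classes (4.08 ± 0.15, adjusted p = 2.95e-20), a value added after it was seen. It was also higher in pericytes (2.25 ± 0.19, adjusted p = 4.18e-11) and lower in microglia (-3.67 ± 0.26, adjusted p = 1.27e-13) and ependymal cells (-3.05 ± 0.28, adjusted p = 9.39e-11), which had 0 CPM in replicate 2.

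The genes most like the paired isoenzymes were ranked by Pearson correlation of log2(CPM + 1) over the 18 profiles of class and library among 7215 genes. The profiles share libraries, depth and class markers, so the values are descriptions. Aldoc was most like Gstm5 (r = 0.988), Ttyh1 (0.977) and Fbxo2 (0.974), and Ldhb most like Mpc1 (0.955), a subunit of the mitochondrial pyruvate carrier, Soat1 (0.949) and Grina (0.938). Ldha was most like Tbc1d4 (0.944), N4bp3 (0.903) and Nck1 (0.892), and Aldoa most like Fam20a (0.91), Slc30a10 (0.844) and Oat (0.837). Hk1 was most like Sap30l (0.971), Wdr13 (0.952) and Prpf40b (0.942), and Hk2 most like Snx17 (0.894), Lsp1 (0.875) and Rcbtb2 (0.874).

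Astrocytes were further compared by their RNA for Gfap, the astrocyte filament protein, since the study concerns a subtype of astrocytes in aging. Cells thinned to 1000 UMIs with at least 3 Gfap UMIs were called Gfap-high (231, 13 and 236 cells in replicates 1, 2 and 3) and those with 0 Gfap-low (501, 35 and 180 cells), which are ranges of 1 score and not types. Of the 10 genes 2 were higher and 0 lower in Gfap-high cells, where 4.66% of the 9273 genes tested were higher and 4.28% lower. Ldha had 198, 181 and 165 CPM in Gfap-high cells, against 125, 47.9 and 139 CPM in Gfap-low cells (log2 change 0.57 ± 0.14, adjusted p = 0.00591), with no overlap. Pkm had 540, 637 and 602 CPM in Gfap-high cells, against 419, 298 and 536 CPM in Gfap-low cells (0.41 ± 0.12, adjusted p = 0.0271), again with no overlap. Aldoa (0.28 ± 0.11, adjusted p = 0.126), Ldhb (0.28 ± 0.11, adjusted p = 0.119) and Aldoc (0.19 ± 0.12, adjusted p = 0.34) did not pass the threshold, with positive differences in 3 of 3 libraries each. Hk1 (0.06 ± 0.15), Hk2 (0.08 ± 0.49), Gapdh (0.10 ± 0.11), Pgk1 (0.08 ± 0.12) and Eno1 (-0.06 ± 0.12) did not pass it either.

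The call of Ldha was lost without replicate 1 (adjusted p = 0.426), and that of Pkm without replicate 1 (adjusted p = 0.388), 2 (adjusted p = 0.0661) or 3 (adjusted p = 0.0804). Without the library as a replicate block 0 of the 10 genes were called, with adjusted p of 0.325 for Ldha and 0.408 for Pkm. Each of these fits has few residual degrees of freedom. The fit that gave the reported Gfap calls had few as well, with 2. The log2 Ldha to Ldhb ratio was -2.71, -2.92 and -3.23 in Gfap-high cells, against -3.17, -4.50 and -3.19 in Gfap-low cells, and these values overlapped. Gfap-high cells had 3828, 6591 and 9383.5 median UMIs, against 4277, 3713 and 4304.5 in Gfap-low cells. With the chosen cells thinned to 1000 UMIs, Ldha (0.90 ± 0.27, adjusted p = 0.015) and Pkm (0.59 ± 0.17, adjusted p = 0.00797) were again higher in Gfap-high cells. The median mitochondrial share was 9.77%, 9.55% and 10.5% in Gfap-high cells, against 9.78%, 12.4% and 12.5% in Gfap-low cells of replicates 1, 2 and 3, and its part in the difference was not tested. Of the listed pathway genes, Slc16a1 (0.74 ± 0.21, adjusted p = 0.023) and Tpi1 (0.40 ± 0.12, adjusted p = 0.0285) were higher, and Vegfa (-0.82 ± 0.12, adjusted p = 1.34e-05) and Pfkfb4 (-0.91 ± 0.29, adjusted p = 0.0406) lower, in Gfap-high cells.

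**Figure D5:**
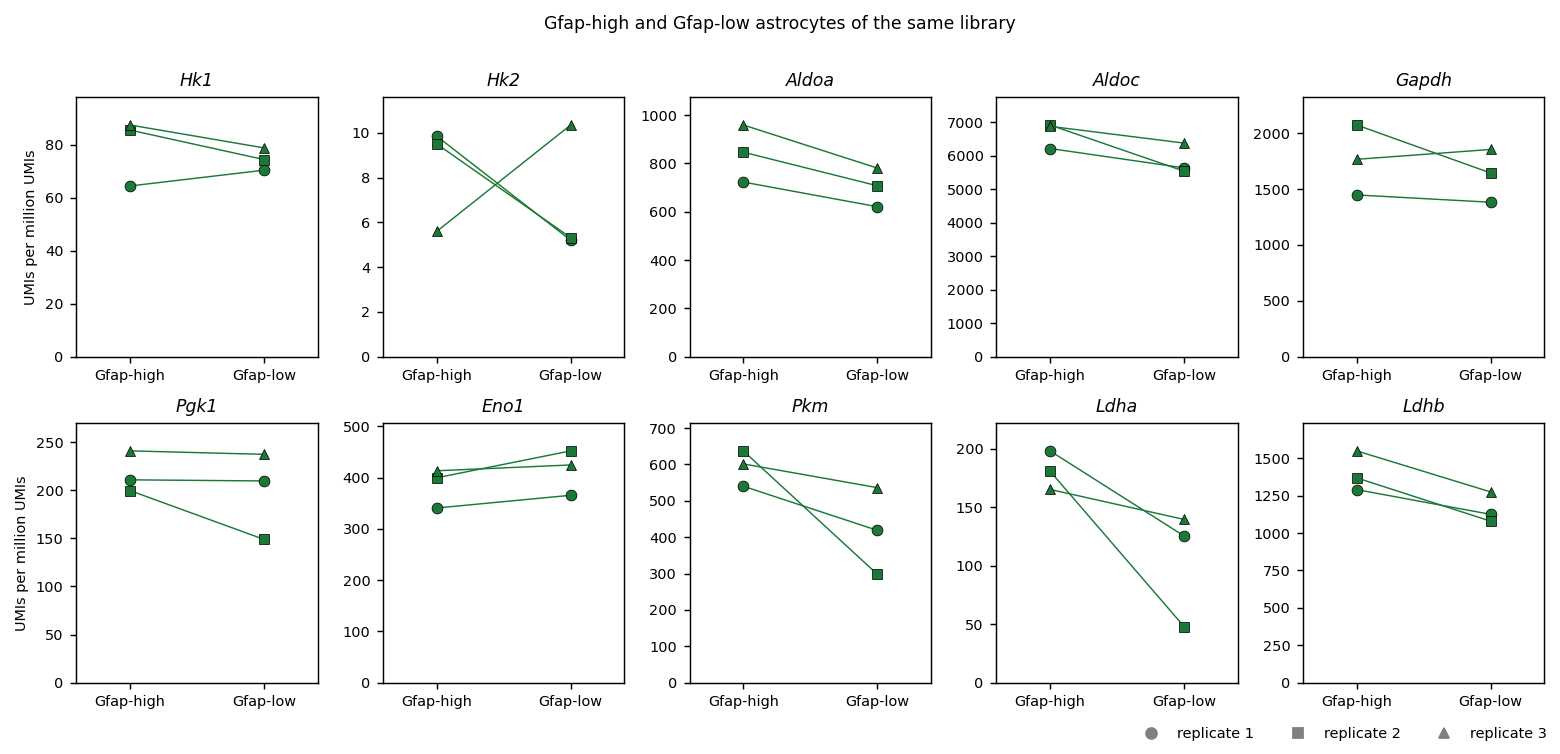
Level of each gene in CPM (y axes from 0) in Gfap-high and Gfap-low astrocytes; each line joins the 2 values of 1 library. Ldha and Pkm are higher in the Gfap-high cells of each library, with 198 against 125 CPM of Ldha in replicate 1.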

How the data were processed

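Single-cell RNA of hippocampus was counted in 3 libraries of 1 group. The authors deposited raw UMI counts per gene and barcode. The submitters' processing notes name Cell Ranger, without a version, and the build mm10. Depth is given in the report, and replicate 2 had the fewest cells.

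Barcodes were kept from 500 UMIs and 300 genes upward, with mitochondrial UMIs not above 20%, and Scrublet (in scanpy 1.11.5, assumed rate 0.06, seed 1) removed 190, 8 and 133 doublets in replicates 1, 2 and 3. Of 17 marker lists, 6 gave classes, and 1293 cells with mixed markers and 755 with none stayed out. Sums of UMIs over each class in each library (10 cells or more) gave 18 profiles, tested with edgeR 4.0.16 (quasi-likelihood, TMM, filterByExpr, library as a block since classes of a library share a suspension, 10 residual degrees of freedom, Benjamini-Hochberg at 0.05; limma 3.58.1, R 4.3.3). On simulated counts with the astrocyte contrast, 75.5% of genes with an absolute log2 change of 1 and 99.0% of those with 2 were called. Of 12178 unchanged genes 0.144% were called. Only 100 genes of each size were changed there, chosen above a minimum count. All other genes had equal means in every class and there was no library effect, so the setting was simpler than the data. DESeq2 1.42.0 served as an alternative, with other scalings, filters, class rules, depths and leaving out each library. The text names the 10 genes, the 2 highest and 2 lowest called genes of the pathway lists per class, and the 3 genes most like each paired isoenzyme (mean of at least 20 CPM, no marker or predicted model). The called pathway genes of the Gfap comparison were named after their values were seen. The genes and lists were chosen with earlier results of these data known. Means are given ± SD over libraries.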

Additional observations from a re-analysis of the deposited data

How the results depend on the processing

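Over the 10 genes in 6 classes and in Gfap-high astrocytes, 957 values under alternatives were compared with those reported: 815 kept direction and side of the threshold, 81 lost the call, 17 gained one and 44 changed sign; the causes were not tested. Called changes that turned sign were, with total UMIs alone, Gapdh in microglia (-0.17) and Ldhb in OPCs (0.047), and, with at least 5 markers and at most 1 of another class, Hk1 (-1.33) and Ldhb (-0.012) in ependymal cells. Of changes that were not called, total UMIs alone turned Aldoa in endothelial cells (-0.10), microglia (-0.53) and ependymal cells (0.20), Pgk1 (-0.47), Pkm (-0.57) and Ldha (-0.28) in microglia, and Hk1 (0.43) and Eno1 (0.35) in OPCs. RLE scaling turned Aldoa in endothelial (-0.080) and ependymal cells (0.084) and Hk1 in OPCs (0.0044), and DESeq2 turned Aldoa in endothelial (-0.077) and ependymal cells (0.0845). With no filter on low counts, Eno1 in microglia was 0.058, Aldoa in ependymal cells 0.031 and Ldha in pericytes -0.033. The stricter markers turned Hk2 in astrocytes (0.71), Eno1 in microglia (0.17) and ependymal cells (-1.53) and Hk1 in OPCs (0.90). Leiden clusters turned Pkm in astrocytes (-0.036) and pericytes (0.020), Aldoa in ependymal cells (0.025) and Hk1 in pericytes (0.035). Thinning turned Hk2 in astrocytes (1.17), Aldoa (-0.091) and Pkm (-0.28) in microglia, Aldoa in ependymal cells (0.030), Hk1 in OPCs (0.47), Ldha in pericytes (-0.17) and, in Gfap-high astrocytes, Hk1 (-0.11). At most 10% mitochondrial UMIs gave 0.012 for Eno1 in microglia, and at least 20 cells gave 0.057 for Aldoa in ependymal cells. Leaving out each library, Hk2 in astrocytes ranged between -1.49 and 0.0011, Pgk1 in microglia between -0.026 and 0.33, Eno1 in microglia between -0.22 and 0.039, Aldoa in ependymal cells between -0.035 and 0.0040 (0.00026 without replicate 3), Hk1 in OPCs between -0.33 and 0.15, and Hk1 in Gfap-high astrocytes between -0.063 and 0.19.

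Counts of called genes moved by over 1.5 times as follows. The stricter markers gave 0 lower in astrocytes, 3 lower in endothelial cells, 1 higher and 0 lower in ependymal cells, and no pericyte value, since too few pericytes were left. Thinning gave 0 lower in astrocytes and 0 higher and 3 lower in pericytes, and Leiden clusters 2 lower in astrocytes and 2 higher and 3 lower in pericytes. RLE scaling, total UMIs alone and DESeq2 each gave 1 higher in endothelial cells, and total UMIs alone gave 6 lower in microglia, 3 lower in OPCs and 1 lower in pericytes. Pericytes had 0 higher with no filter, with at most 10% mitochondrial UMIs and with at least 20 cells, which also gave 3 lower. Without the replicate block, ependymal cells had 3 higher, pericytes 3 lower and Gfap-high astrocytes 0 higher; over all genes the Gfap comparison then called 33 higher and 12 lower, against 432 and 397 with it. Leaving out each library gave 1 to 2 lower in astrocytes, 3 to 5 higher in ependymal cells, 4 to 8 lower in OPCs, 0 to 1 higher and 1 to 4 lower in pericytes, and 0 to 1 higher in Gfap-high astrocytes. The Aldoa to Aldoc difference of astrocytes was -3.52 with the stricter markers and -3.63 thinned, and the Ldha to Ldhb difference -2.79 and -2.99. Aldoc and Ldhb in astrocytes, Ldha and Ldhb in endothelial cells and Hk2 in microglia kept their calls under the 15 alternatives. Replicate 2 held 17 pericytes, 15 OPCs and 18 ependymal cells. Without Aldoc, an alternative chosen after seeing the data, the summed genes took 0.512% of UMIs in astrocytes, 0.394% in ependymal cells and 0.281% in pericytes, against 1.16%, 0.460% and 0.310% with it.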
